A study of Mus musculus with 4 samples.

Results

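The cluster of miR-290 to miR-295 is a group of microRNAs cut from neighbouring hairpins of 1 transcript. It was read here in whole mouse embryos at E18.5, close to birth, by TaqMan real-time PCR. The members are the assays that carry the cluster's names, no measured value entering that rule: the 7 assays mmu-miR-290-3p, mmu-miR-291a-3p, mmu-miR-291b-5p, mmu-miR-292-3p, mmu-miR-293, mmu-miR-294 and mmu-miR-295, out of 375 microRNA assays read in all samples. The embryos were of the C57BL/6 strain, 2 samples of the genotype ER-alpha KO and 2 wild-type. ER-alpha is the nuclear estrogen receptor encoded by Esr1, and the labels name neither the knockout allele nor the sex of the embryos. Single embryos and pools are not told apart in the labels either, so all spread and p-values concern these samples and may be partly technical.

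In mice the cluster is best known from embryonic stem cells, where its microRNAs are among the most abundant and fall as the cells differentiate; it is also known from germ cells and from the trophoblast of the placenta. Most of its 3p arms share a seed, the stretch at the 5′ end that pairs with target messenger RNAs, and through it they lower inhibitors of the cell cycle such as Cdkn1a, Rbl2 and Lats2. The miR-302 cluster, which also holds miR-367 and is active in slightly later embryonic cells, has a closely related seed, as does the miR-17 family of proliferating cells. Only E18.5 was measured, so these data hold no earlier level against which expression near birth could be called residual.

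The genes lie on mouse chromosome 7 (GRCm38.p6, plus strand), in the region chr7:3218626-3220841, a span of 2216 bases that holds the 7 genes in the order Mir290a, Mir291a, Mir292, Mir291b, Mir293, Mir294 and Mir295. The mature sequences below, from RefSeq on that build, are shown because the shared seed is what makes these assays a family. Bases 2 to 8, the seed, are in capitals. RefSeq entries matched 6 of the 7 assays; mmu-miR-292-3p is named only. Assay names without an arm were taken as the 3p arm, the usual meaning of the older names.
mmu-miR-290-3p: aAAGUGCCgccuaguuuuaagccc
mmu-miR-291a-3p: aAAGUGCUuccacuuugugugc
mmu-miR-294: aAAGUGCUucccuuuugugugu
mmu-miR-295: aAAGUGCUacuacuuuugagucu
mmu-miR-293: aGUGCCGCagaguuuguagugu
mmu-miR-291b-5p: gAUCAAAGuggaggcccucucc

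The mature forms of mmu-miR-291a-3p (chr7:3218968-3218989), mmu-miR-294 (chr7:3220691-3220712) and mmu-miR-295 (chr7:3220815-3220837) have the same seed, AAGUGCU. That of mmu-miR-290-3p (chr7:3218674-3218697) has the seed AAGUGCC. The mature form of mmu-miR-293 (chr7:3220390-3220411) has the seed GUGCCGC, and mmu-miR-291b-5p (chr7:3219494-3219515), the only 5p arm among the members, has AUCAAAG. Aligned from their 5′ ends without gaps, mmu-miR-291a-3p and mmu-miR-294 had the same base at 19 of 22 positions, the first 11 without a break. The pair mmu-miR-291a-3p and mmu-miR-295 agreed at 15 of 22, and mmu-miR-293 shared 6 of 22 with mmu-miR-295. Such counts miss shifted matches: the first bases of mmu-miR-293, AGUGCCGC, also occur in mmu-miR-290-3p, further from its 5′ end.

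Each well gives a threshold cycle (Ct), the PCR cycle at which fluorescence passes a set level. The earlier the cycle, the more RNA, and 1 cycle stands for about 1 log2 unit. A microRNA was called detected at a Ct of 35 or lower and amplified at any Ct under 40, the last cycle. Over all 375 microRNAs, 69.3% and 69.1% were detected in ER-alpha KO replicates 1 and 2, and 77.3% and 67.7% in wild-type replicates 1 and 2. The shares amplified were 76.3% and 75.5% in the ER-alpha KO samples, and 89.6% and 75.5% in the wild-type samples. Wild-type replicate 1 stands apart. It amplified 38 microRNAs that amplified in none of the other 3 samples, and the median Ct of the microRNAs detected everywhere was 28.2 and 27.8 in ER-alpha KO replicates 1 and 2, and 29.2 and 27.4 in wild-type replicates 1 and 2. Its readings are also nearly whole cycles plus 0.273: 89.9% of the 336 microRNAs amplified there fall on that grid, with a tolerance of 0.1 cycle. The differences between genotypes of the members, and the medians of the assay lists set beside them, are therefore given with and without it. Markers of liver (mmu-miR-122), striated muscle (mmu-miR-133a), endothelium (mmu-miR-126-3p), blood cells (mmu-miR-142-3p), epidermis (mmu-miR-203), neurons (mmu-miR-124) and endocrine cells (mmu-miR-375) were detected in all 4 samples, at Ct 19.96 to 31.2, as the whole-embryo label requires.

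No member was detected in all 4 samples, while 61.1% of the 375 microRNAs were. Of the 28 member wells, 18 amplified and 12 were detected. In ER-alpha KO replicates 1 and 2, 3 and 4 of the 7 members were detected, and in wild-type replicates 1 and 2 it was 1 and 4. These shares of 42.9% and 57.1% in ER-alpha KO, and 14.3% and 57.1% in wild-type samples, were below those of all microRNAs in each of the 4 samples. Wild-type replicate 1 detected the most microRNAs and the fewest members. The same 4 members, mmu-miR-291a-3p, mmu-miR-292-3p, mmu-miR-293 and mmu-miR-295, amplified in all 4 samples, as 70.4% of the 375 microRNAs did, and each was detected in 3 samples.

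The other 3 members were never detected. The assay for mmu-miR-290-3p, from the first hairpin of the cluster, was without amplification in both ER-alpha KO and both wild-type samples. Those for mmu-miR-291b-5p and mmu-miR-294 were without amplification in both ER-alpha KO samples and in wild-type replicate 2, and amplified late in wild-type replicate 1, at Ct 36.5 and 37.2. That replicate is the sample in which 89.6% of all assays amplified, so nothing separates the genotypes for these 3 members outside it. In mouse embryonic stem cells miR-294 is a main product of the cluster and a close relative of miR-291a-3p in sequence; here mmu-miR-291a-3p amplified in 4 of 4 samples and mmu-miR-294 in 1 of 4. The assays differ in efficiency, which is unknown, so a late or missing Ct does not give the order of the levels between microRNAs.

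**Figure D1:**
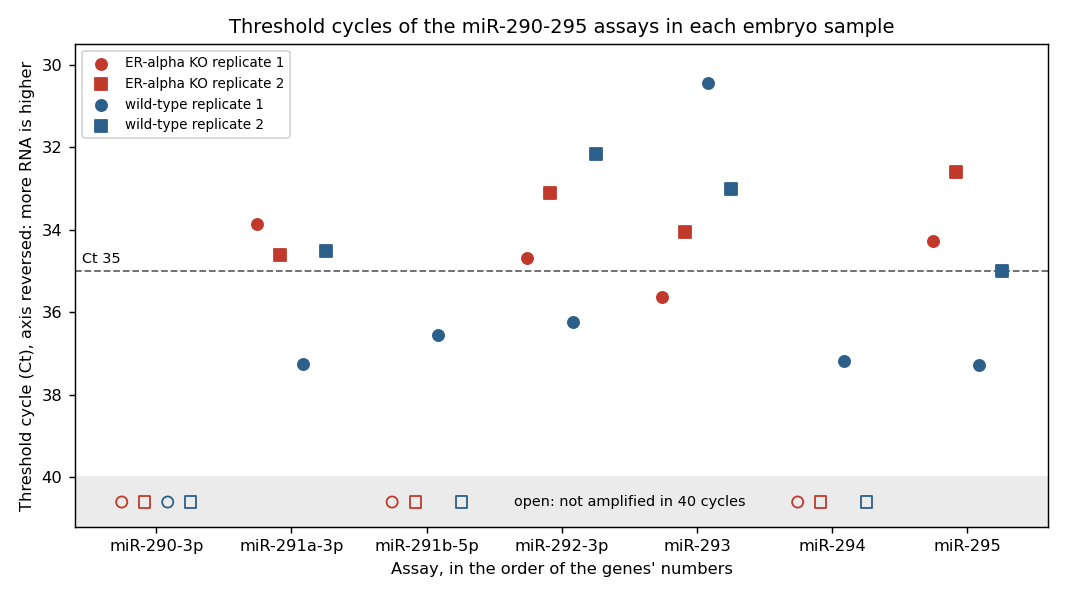
Threshold cycle (y axis, reversed so that more RNA is higher) of the 7 cluster assays (x axis) in 2 ER-alpha KO and 2 wild-type embryo samples, 1 well each; open symbols in the grey band are wells that did not amplify in 40 cycles, and the dashed line is the detection limit of Ct 35. Filled points lie between Ct 30.4 and 37.3, and 4 assays have a filled point in every sample.

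The 4 amplified members came up late everywhere. In ER-alpha KO replicate 1 they spanned Ct 33.9 to 35.6 and ranked 240 to 267 among 286 amplified microRNAs, counted from the earliest. In ER-alpha KO replicate 2 they spanned 32.6 to 34.6 and ranked 219 to 254 of 283. In wild-type replicate 2 they spanned 32.2 to 34.99 and ranked 220 to 254 of 283. They thus belong to the late end of the amplified assays in those 3 samples, while in wild-type replicate 1 mmu-miR-293 ranked 169 and mmu-miR-291a-3p and mmu-miR-295 ranked 334 and 335 of 336.

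The seed-sharing mmu-miR-295, from the last hairpin, had the clearest separation by genotype. Its Ct was 34.3 and 32.6 in ER-alpha KO replicates 1 and 2, and 37.3 and 34.99 in wild-type replicates 1 and 2, the last value just inside the detection limit. Both ER-alpha KO samples were earlier than both wild-type samples. Levels are given as minus the Ct after centring each sample on the median of the 229 microRNAs detected in all samples. On that log2 scale mmu-miR-295 stood at -5.43 ± 0.92 in ER-alpha KO and -7.83 ± 0.29 in wild-type embryos (SD, n = 2 each), a difference of 2.40 with a limma standard error of 0.60, or 5.26-fold. The standard errors and the 95% interval given for members come from the limma fit, which draws each variance toward those of all 264 microRNAs fitted. For the 4 members these standard errors are smaller than the SDs alone would give. Without wild-type replicate 1 the difference was 1.86. Wherever a sample is left out, the others are centred anew, on the microRNAs detected in all remaining samples. Such values therefore hold the change of centring as well as the loss of the sample. On the unchanged centring, mmu-miR-295 stood at -7.63 in wild-type replicate 2.

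Its seed relative mmu-miR-291a-3p had Ct 33.9 and 34.6 in ER-alpha KO replicates 1 and 2, and 37.3 and 34.5 in wild-type replicates 1 and 2. The raw Ct values of the groups overlap, since ER-alpha KO replicate 2 and wild-type replicate 2 differ by less than 0.1 cycle. After centring they were apart, at -6.23 ± 0.78 in ER-alpha KO and -7.59 ± 0.61 in wild-type samples (log2 levels, SD, n = 2 each). The difference was 1.36 (limma standard error 0.61), and 0.60 without wild-type replicate 1.

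The assay for mmu-miR-293, whose seed is not the shared one, differed in the other direction. Its Ct was 35.6 and 34.1 in ER-alpha KO replicates 1 and 2, and 30.4 and 33.01 in wild-type replicates 1 and 2. Both ER-alpha KO samples were later than both wild-type samples, but the wild-type samples were further from each other than the nearest pair across genotypes. The log2 levels were -6.83 ± 0.86 in ER-alpha KO and -3.42 ± 3.14 in wild-type embryos (SD, n = 2 each). The difference was -3.41, and -1.52 without wild-type replicate 1. Its limma standard error with all samples was 1.43, smaller than these SDs alone would give. In that replicate mmu-miR-293 was the earliest member by 5.80 cycles, and its centred level lay 4.44 cycles ahead of the earliest other sample. Only 3 of the 264 microRNAs amplified in all samples, itself included, had a gap of that size there. Its reading was 0.161 cycles off the whole-cycle grid, 1 of 34 wells there that were off it by more than 0.1 cycle, whereas mmu-miR-291a-3p, mmu-miR-292-3p and mmu-miR-295 were at most 0.036 cycles off. The part of these readings in the difference was not tested.

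The member mmu-miR-292-3p had Ct 34.7 and 33.1 in ER-alpha KO replicates 1 and 2, and 36.2 and 32.2 in wild-type replicates 1 and 2. Both ER-alpha KO samples fell between the wild-type samples. The log2 levels were -5.89 ± 0.85 in ER-alpha KO and -5.91 ± 1.55 in wild-type embryos (SD, n = 2 each), and the difference was 0.02. Its limma 95% interval of -2.12 to 2.16 runs from 0.230-fold to 4.47-fold. Without wild-type replicate 1 the difference was -1.41.

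No difference passed the test. In the limma fit over the 264 microRNAs amplified in all samples, which holds 4 of the 7 members, 0 (0%) had an adjusted p of 0.05 or lower. Without adjustment 5 (1.89%) had a p under 0.05, and among the members mmu-miR-295 alone did, with the smallest of all (limma unadjusted p = 0.00808, adjusted p = 0.844). The adjusted p was 0.844 for mmu-miR-291a-3p and mmu-miR-293 and 0.985 for mmu-miR-292-3p. The exact permutation test over the 4 samples gave a two-sided p = 0.333 for mmu-miR-291a-3p, mmu-miR-293 and mmu-miR-295, the smallest that 2 against 2 samples allow, and p = 1 for mmu-miR-292-3p. With the replicate number as a block, 2 of the 264 (0.758%) passed, mmu-miR-293 (-3.41) and mmu-miR-668 (-3.47), both with a limma adjusted p = 0.00855. The labels do not say that the numbers pair the samples. The numbered pairs of mmu-miR-293 were also far from alike. Its level in ER-alpha KO against wild-type was -7.44 against -1.20 for replicate 1, and -6.23 against -5.64 for replicate 2. In the fit of the 229 microRNAs detected in all samples, which holds none of the members, 0 (0%) passed with limma, and 10 had an unadjusted p under 0.05.

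Set against all 264 microRNAs, the members were spread widely and not to 1 side. Both ER-alpha KO samples lay above both wild-type samples for 31.4% of the 264 and for 2 of the 4 members, and below for 7.2% and for 1 member. The median difference of all 264 was 0.26. By size, mmu-miR-295 ranked 3 from the highest and mmu-miR-293 ranked 2 from the lowest. Wide differences are common at such late cycles. Over the 45 microRNAs with a mean Ct of 33 or higher, the median absolute difference between genotypes was 0.92 log2 units. Of these, 11 exceeded 2, mmu-miR-293 and mmu-miR-295 included. Over the 165 with a mean Ct under 30 the median was 0.42 and 0 exceeded 2. Without wild-type replicate 1 the medians were 0.80 and 0.20, and again 11 and 0 exceeded 2. Replicates scattered in the same way. The median absolute difference between the ER-alpha KO replicates was 1.20 log2 units for the late and 0.40 for the early class, and between the wild-type replicates 1.62 and 0.56. The late class holds the 4 members, and its median of 1.20 between the ER-alpha KO replicates is the value of mmu-miR-292-3p itself. Class values without the members were not computed. The ER-alpha KO replicates of the 4 members differed by 1.11 to 1.31, and their wild-type replicates by 0.40 for mmu-miR-295, 0.87 for mmu-miR-291a-3p, 2.19 for mmu-miR-292-3p and 4.44 for mmu-miR-293.

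**Figure D2:**
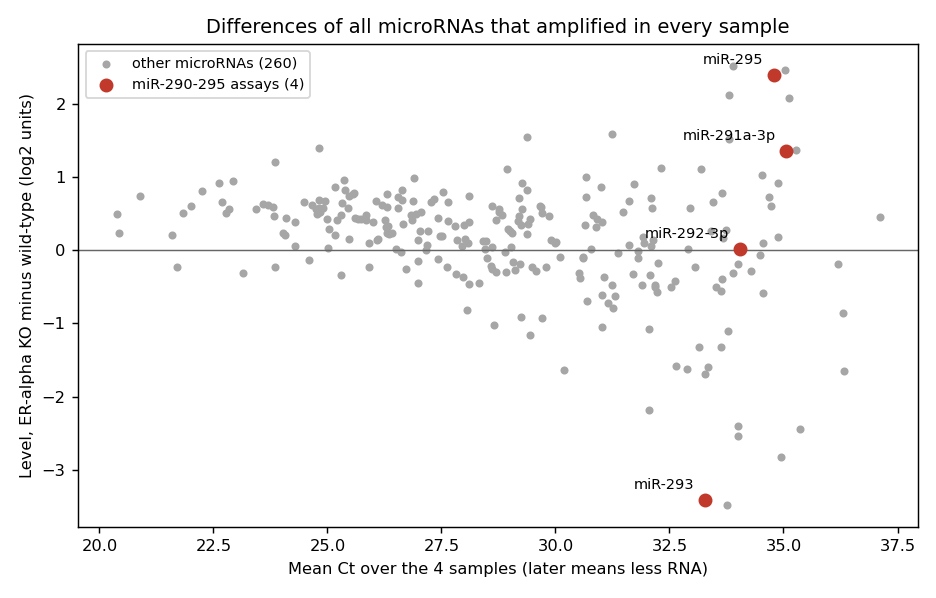
Difference in level between ER-alpha KO and wild-type samples (y axis, log2 units) against the mean Ct over the 4 samples (x axis) for 264 microRNAs, each point 1 assay, with the 4 amplified cluster assays in red. The red points lie at mean Ct 33.3 to 35.1, where grey points scatter widely, with mmu-miR-295 at 2.40 and mmu-miR-293 at -3.41.

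Members of 1 transcript can also be compared inside a sample, where no scaling enters. The assay for mmu-miR-292-3p came up 0.95 and 0.94 cycles before that for mmu-miR-293 in ER-alpha KO replicates 1 and 2, and 0.83 cycles before it in wild-type replicate 2. In wild-type replicate 1 it came 5.80 cycles after it. Outside that sample the spacing of this pair was therefore within a range of 0.12 cycles. This was the narrowest of the 6 pairs compared. Over the same samples the others had ranges of 2.47 to 3.43 cycles. Against mmu-miR-295, mmu-miR-292-3p was 0.40 and 0.50 cycles later in the ER-alpha KO samples, and 1.03 and 2.82 cycles earlier in wild-type replicates 1 and 2. Likewise mmu-miR-293 was 1.35 and 1.45 cycles later than mmu-miR-295 in the ER-alpha KO samples, and 6.83 and 1.98 cycles earlier in the wild-type samples. So mmu-miR-295 preceded both in each ER-alpha KO sample and followed both in each wild-type sample, wild-type replicate 2 included. The difference between mmu-miR-291a-3p and mmu-miR-295 overlapped between genotypes, at -0.41 and 2.00 cycles in ER-alpha KO and -0.01 and -0.47 cycles in wild-type samples. Of the 6 pairs compared, 4 had groups that did not overlap, beside 33.1% of all pairs of the 264 microRNAs. Each of these 4 had an exact two-sided permutation p = 0.333, adjusted to 0.5 over the 6. The 6 pairs share wells and are not independent. Of the 4 apart, all but mmu-miR-292-3p with mmu-miR-295 hold mmu-miR-293, with its early well in wild-type replicate 1.

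**Figure D3:**
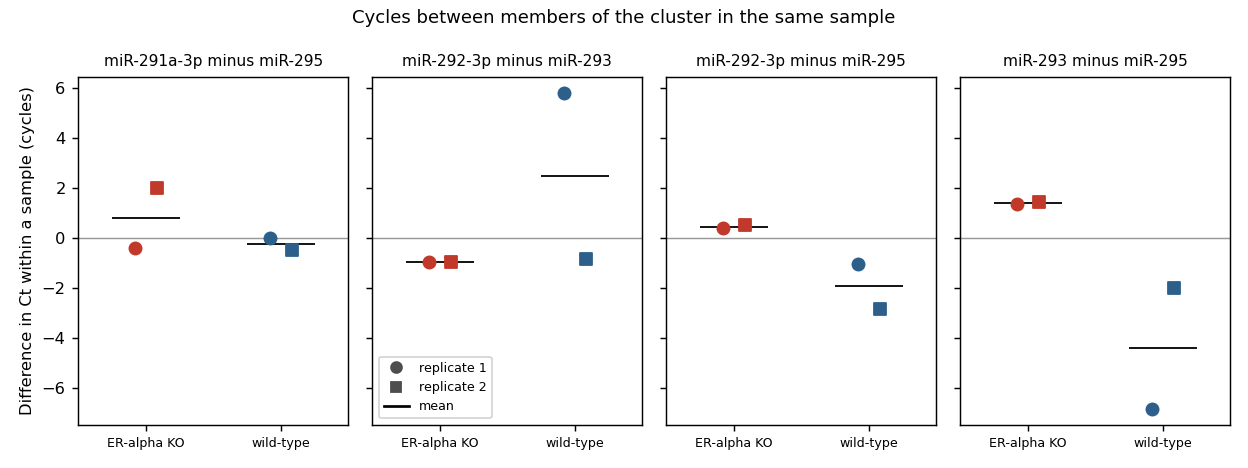
Difference in Ct within a sample (y axis, cycles) for 4 pairs of cluster assays in ER-alpha KO and wild-type samples, with a circle for replicate 1, a square for replicate 2 and a bar for the mean. The ER-alpha KO points of mmu-miR-292-3p and mmu-miR-293 against mmu-miR-295 lie above 0 and the wild-type points below it.

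The earliest of the 4 members was not the same across samples. It was mmu-miR-291a-3p in ER-alpha KO replicate 1 and mmu-miR-295 in ER-alpha KO replicate 2. In wild-type replicates 1 and 2 it was mmu-miR-293 and mmu-miR-292-3p. The members were 1.76 and 2.00 cycles apart in the ER-alpha KO samples, and 6.83 and 2.82 cycles apart in wild-type replicates 1 and 2. Outside wild-type replicate 1, neighbours in these orders were 0.40 to 1.51 cycles apart. Only the 1.51 between mmu-miR-293 and mmu-miR-291a-3p in wild-type replicate 2 exceeded the 1.20 by which late assays typically differed between the ER-alpha KO replicates. It did not exceed the 1.62 between the wild-type replicates, the genotype in which it was read. The measures are unlike, since a gap between assays also holds their unknown difference in efficiency, so this does not show which orders are real.

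The pattern of mmu-miR-292-3p over the 4 samples was most like those of mmu-miR-543, mmu-miR-125a-5p and mmu-miR-744. The mean absolute difference of their centred levels from those of mmu-miR-292-3p, each after subtracting its own mean, was 0.23, 0.32 and 0.33 log2 units, over 4 samples and among 260 assays outside the cluster. The same measure was 0.91 for mmu-miR-291a-3p, 1.19 for mmu-miR-295 and 2.52 for mmu-miR-293, which rank 105, 192 and 254 on that list. Over all 4 samples, wild-type replicate 1 included, no other member was thus among the patterns nearest to mmu-miR-292-3p. Late assays scatter more between replicates, which alone enlarges this measure. The ranks therefore do not show whether members of the transcript vary together. Outside that replicate the spacing of mmu-miR-292-3p and mmu-miR-293 stayed within a range of 0.12 cycles, the narrowest of the 6 pairs of members. The likeness was not computed without it.

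The seed relatives show the range of the family in the same RNA. Their sequences are given to show where the AAGUGC stretch sits, with the seed in capitals; mmu-miR-302b and mmu-miR-302d have the seed of mmu-miR-291a-3p, and mmu-miR-17 has AAAGUGC.
mmu-miR-302b: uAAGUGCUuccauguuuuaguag
mmu-miR-302d: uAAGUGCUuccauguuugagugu
mmu-miR-302c: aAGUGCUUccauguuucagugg
mmu-miR-17: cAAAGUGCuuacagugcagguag

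The first 3 lie at chr3:127545275-127545297, chr3:127545665-127545687 and chr3:127545406-127545427, and mmu-miR-17 at chr14:115043684-115043706, all on the plus strand of GRCm38.p6. The letters AAGUGC within bases 1 to 8 occur in 18 of the 1679 mature mouse microRNAs of the RefSeq table (1.07%). Among mouse assays outside the cluster that matched an entry, 10 hold them. No entry was found for mmu-miR-302a, so it could not be searched and is not counted among the relatives.

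The miR-302 cluster, active in the pluripotent epiblast after implantation, rarely amplified. Of the 20 wells for its microRNAs and miR-367, 6 amplified and 1 was detected. In ER-alpha KO replicate 1 mmu-miR-302a amplified at Ct 35.4, and in replicate 2 mmu-miR-302b and mmu-miR-367 did at 36.4 and 36.6. In wild-type replicate 1 mmu-miR-302c amplified at 29.4 and mmu-miR-302d at 36.4, and in wild-type replicate 2 mmu-miR-302d amplified at 39.01. No assay of this cluster amplified in both samples of a genotype except mmu-miR-302d in wild-type. The single detected well, mmu-miR-302c, was in wild-type replicate 1 and 0.174 cycles off its grid. Each of its assays thus amplified in 1 or 2 of the 4 samples, while mmu-miR-290-3p, mmu-miR-291b-5p and mmu-miR-294 amplified in 0, 1 and 1 and the other 4 members of the miR-290 cluster in 4.

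In contrast, the 6 miR-17 relatives mmu-miR-17, mmu-miR-20a, mmu-miR-20b, mmu-miR-93, mmu-miR-106a and mmu-miR-106b, which act in proliferating cells, were detected in all 4 samples. For mmu-miR-17 the Ct was 21.4 and 21.5 in ER-alpha KO replicates 1 and 2, and 23.2 and 21.3 in wild-type replicates 1 and 2, earlier than every member in each sample. Of these 6, 0 passed the test in either direction (limma, smallest adjusted p = 0.844). Both ER-alpha KO samples lay above both wild-type samples for 4 of the 6, beside 31.4% of the 264. The median difference of the 6 was 0.53, against 0.26 for all microRNAs tested. The highest were mmu-miR-20b (0.60) and mmu-miR-93 (0.57), the lowest mmu-miR-106b (0.48) and mmu-miR-20a (0.24). Without wild-type replicate 1 these were 0.044, -0.17, 0.048 and -0.12, and the median was 0.046, against -0.017 for all microRNAs tested. The remaining relative, mmu-miR-105, amplified in ER-alpha KO replicate 1 (38.1) and wild-type replicate 1 (31.2) only.

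**Figure D4:**
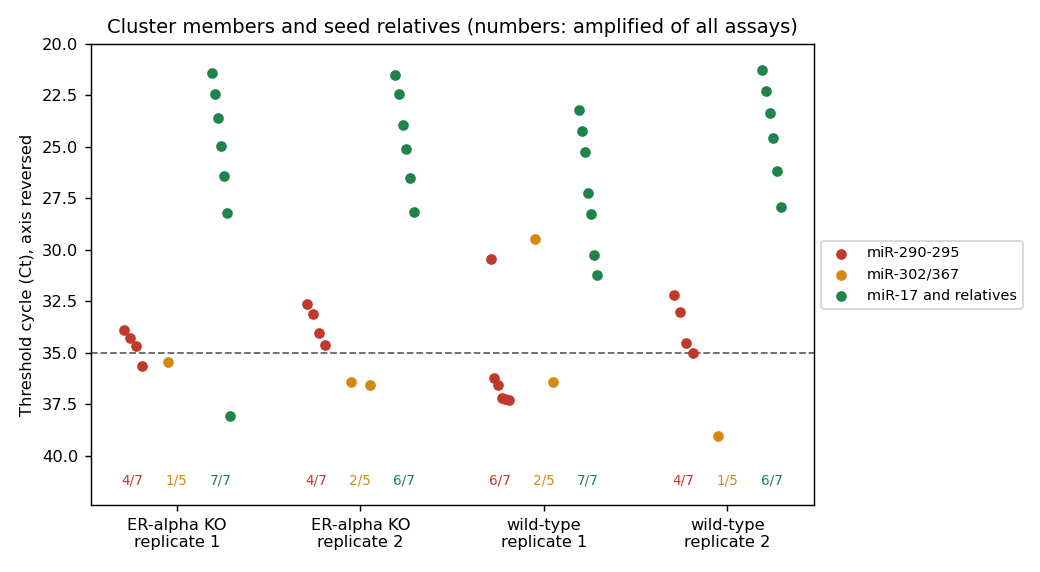
Threshold cycle (y axis, reversed) in each of the 4 samples (x axis) for the 7 assays of the miR-290 cluster (red), the assays of miR-302 and miR-367 (orange) and mmu-miR-17 with its relatives (green), each point 1 assay, with the number amplified of all assays below. The green points include mmu-miR-105, which holds AAGUGC but not the seed of mmu-miR-17. The dashed line is Ct 35. Green points start at Ct 21.3 to 23.2, and those of mmu-miR-105 lie at 38.1 in ER-alpha KO replicate 1 and 31.2 in wild-type replicate 1. Red points lie near the line except mmu-miR-293 in wild-type replicate 1.

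Some microRNAs reported in mouse or human stem cells to lower pluripotency factors were detected in the same samples. The assays mmu-miR-134, mmu-miR-145, mmu-miR-296-3p and mmu-miR-296-5p were detected in all 4 samples, and mmu-miR-470 amplified in wild-type replicate 1 only, at Ct 35.3. Of the detected assays, mmu-miR-296-3p came up as late as the cluster members. Its Ct was 34.4 and 33.4 in ER-alpha KO replicates 1 and 2, and 34.3 and 33.5 in wild-type replicates 1 and 2. Of the 4 tested, 0 passed in either direction (limma, smallest adjusted p = 0.844), and their median difference was -0.14, and -0.28 without wild-type replicate 1. For mmu-miR-145, reported in human cells to lower OCT4, the Ct was 25.0 and 24.7 in ER-alpha KO replicates 1 and 2, and 26.3 and 24.1 in wild-type replicates 1 and 2.

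The trophoblast is a known source of the cluster, so microRNAs of the Sfmbt2 intron (miR-467 and miR-669) and of H19 (miR-675), which are high in mouse placenta and also made in the embryo, are given beside it. Of these 8 assays, 7 amplified in all 4 samples and mmu-miR-675-5p in none. Their Ct ranged from 28.3 to 35.1 and from 28.6 to 35.9 in ER-alpha KO replicates 1 and 2, and from 29.2 to 33.3 and 28.3 to 33.4 in wild-type replicates 1 and 2. The median difference of the 7 was -0.32 (-0.42 without wild-type replicate 1), 0 passed the test, and mmu-miR-467e alone had both ER-alpha KO samples below both wild-type samples (-2.54, and -2.31 without wild-type replicate 1), 1 of 7 beside 7.2% of the 264. The part of placental tissue in the cluster's levels was not tested. In whole-embryo RNA, fewer cells of a type and less RNA per cell cannot be told apart.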

How the data were processed

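Per the labels' protocols, RNA came from TRIzol extraction of whole embryos and TaqMan PCR ran for 40 cycles on a 7900HT instrument (Applied Biosystems). The files deposited by the authors hold Ct values, 1 well per microRNA and 4 for U6, per the file headers; threshold, baseline and any normalization by the authors are not given in the sources used here. Undetermined wells, and in wild-type replicate 1 wells above cycle 40, were taken as not amplified. The precision is limited by 2 samples per genotype; PCR gives no read depth.

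In each sample the median Ct of the 229 microRNAs with a Ct of 35 or lower everywhere was subtracted, and levels are minus the centred Ct on a log2 scale. Where a sample was left out, the set for centring and its medians were taken again from the remaining samples. Genotypes were tested by limma 3.58.1 (R 4.3.3; two-sided, lmFit with eBayes, Benjamini-Hochberg over all microRNAs of a fit), for the 229 and for the 264 amplified in all samples. Members amplified in fewer samples were not tested. Tables used Python 3.11.15 and pandas 2.3.3, exact permutation tests scipy 1.17.1 and plots matplotlib 3.10.9.

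Named were all members, the assays of miR-302 and miR-367, the 2 highest and 2 lowest seed relatives, listed regulators and the 3 nearest patterns. Relatives were found by AAGUGC within bases 1 to 8, with the arm of older names taken as the usual one. The cluster, as the subject, and the lists were chosen with earlier results of these data known; its members follow from assay names. Alternatives were other scalings, detection limits, variance settings, the replicate number as a block, removal of the constant and each sample left out.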

Additional observations from a re-analysis of the deposited data

How the results depend on the processing

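The count of microRNAs past the threshold among those detected in all samples was 0 under every scaling, filter and variance setting and with each sample left out (range 0 to 0), and 1 with the replicate block. Same-numbered samples deviated together (r = 0.37 over 229 assays), but there are only 2 such pairs and the labels give the numbers no meaning, so the main results are unpaired. The difference of mmu-miR-292-3p, 0.02, was 0.02 with the replicate block. It turned to -0.29 with average-profile centring and -0.063 with the constant removed, and ranged from -1.41 (without wild-type replicate 1) to 1.23 with samples left out, with -0.66 without ER-alpha KO replicate 2; the cause was not tested. The differences of the other 3 amplified members kept their direction in every alternative that could be fitted (at a Ct of 37, mmu-miR-291a-3p and mmu-miR-295 drop out). With samples left out they ranged from 1.66 to 3.05 for mmu-miR-295, 0.60 to 1.91 for mmu-miR-291a-3p and -5.52 to -1.52 for mmu-miR-293. Of these, mmu-miR-293 alone passed in any alternative, with the replicate block (limma adjusted p = 0.00855, 2 of 264 called, 0.758%). Its numbered pairs were far from alike in size. In the other alternatives with all samples its limma adjusted p was 0.215 to 0.955. The groups of mmu-miR-291a-3p overlapped with no normalization and with quantile normalization. The mean number of members detected per sample, 3.5 in ER-alpha KO and 2.5 in wild-type samples, was 0 and 0.5 at a Ct of 32. At a Ct of 38, and for any amplification, it was 4 and 5, so the order of the genotypes turned; with a sample left out it was 3 to 4 and 1 to 4. The median difference of the seed relatives, 0.53, was 0.022 with quantile normalization and 0.046 to 0.70 with samples left out. Single wells near Ct 35 limit all member values.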
